A study of Mus musculus with 2 samples.

Results

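The 10 genes described here encode granins and the enzymes that cut and trim prohormones: Chga, Chgb, Scg2, Scg3, Scg5, Pcsk1n, Pcsk1, Pcsk2, Cpe and Pam. They were chosen by symbol as a gene family and not by a rule on measured values, but with earlier results of these data known. All 10 were present among the 27998 genes of the count matrices. Their transcripts were counted in single cells from fetal mouse pancreas (embryonic day 18.5), with 1 library that is labelled knockout and 1 that is labelled control. Each library came from 1 pancreas of the C57BL/6 strain, and the knockout is named Dpy30∆P in the study's design text, where Dpy30 is a subunit of the MLL/SET1 histone H3 lysine methyltransferase complexes. No source used here gives the Cre driver, the part of Dpy30 that was deleted or any allele that the control carried. A single library per group gives no replicate check of any difference between the libraries, so the intervals below are 95% intervals for counting error only and no p-value was computed.

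Endocrine cells store peptide hormones in dense-core granules that release their content when the cell is stimulated. Prohormones enter the granule as longer chains together with granins, acidic proteins that aggregate with hormone and calcium. Inside, the convertases PC1/3 (Pcsk1) and PC2 (Pcsk2) cut at pairs of basic residues, carboxypeptidase E (Cpe) removes the basic residues left at the new ends, and peptidylglycine alpha-amidating monooxygenase (Pam) turns a terminal glycine into an amide. In the pancreas PC1/3 and PC2 both act on proinsulin, while PC2 releases glucagon from proglucagon in alpha cells.

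Cells were kept when they had at least 500 detected genes and at most 10% of their unique molecular identifiers (UMIs, each standing for 1 captured transcript) from mitochondrial genes. After removal of called doublets, 3233 cells remained in the knockout-labelled library and 2611 in the control library, with medians of 6631 and 6831 UMIs per cell. The clusters called endocrine, which showed UMIs of all 29 endocrine markers on the list in both libraries, held 234 endocrine cells of the knockout-labelled library and 365 of the control library. Dpy30 itself was not lower in the library labelled knockout: its level in endocrine cells was 286 UMIs per 1000000 (CPM) in that library and 158 CPM in the control library. These are 3' tags, and since the deleted part is not given they check neither the deletion nor the labels, so every direction below rests on the label alone. The knockout-labelled library held 46550 Xist and 0 Ddx3y UMIs, against 1 and 1570 in the control library, so that sex and genotype cannot be told apart, which bears first on the X-linked Pcsk1n. One endocrine sub-cluster held 88 cells of the knockout-labelled library and 1 of the control library, and another held 7 and 76. Several results that rest on the first are given below with and without it. The second was kept unless stated. Of all barcodes 27 occurred in both libraries, and 3 of the control endocrine barcodes were also barcodes of the knockout-labelled library.

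Endocrine cells were sorted by their leading hormone where its UMIs reached 1% of the cell's total, and otherwise as Neurog3-positive at 2 or more UMIs of Neurog3, the transcription factor of endocrine progenitors, or as hormone-low. The Neurog3-positive type held 59 cells of the knockout-labelled library and 43 of the control library, and the hormone-low type 58 and 43. The insulin-leading type held 57 and 164 cells, the glucagon-leading type 29 and 75, the somatostatin-leading type 19 and 25, and the ghrelin-leading type 12 and 15. Median UMIs per cell were 9819 and 14877 in insulin-leading cells and differed by less in the Neurog3-positive (7305 and 6278), hormone-low (5632 and 5689) and glucagon-leading (7523 and 8077) types. Ratios between libraries are given for the 4 types with at least 20 cells in both. Levels of one gene were compared across types and not between genes, since tags at the 3' end are not per length.

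Endocrine cells held 86.4% to 98.2% of the UMIs of each granin, helper and convertase among the kept cells of the knockout-labelled library and 96.5% to 99.3% in the control library, but 31.9% and 66.5% of those of Cpe and 35.2% and 56.4% of those of Pam. Outside them, endothelial-like and macrophage-like cells served as a measure of free RNA: the summed level there was 0% to 0.297% of the endocrine level for the granins, their helpers and both convertases in either library. For Cpe it was 1.12% in the knockout-labelled library and 0.968% in the control library, and for Pam, which these cells may express themselves, 19.3% and 29.5%. Across the 10 genes, the median share of endocrine cells with at least 1 UMI was 70.3% in the knockout-labelled library and 80.7% in the control library. With every cell thinned to 2000 UMIs these medians were 41.9% and 52.3%. For Chga the unthinned share was 80.3% and 90.7% in endocrine cells, and 3.39% and 5.03% in endothelial-like cells.

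**Figure D1:**
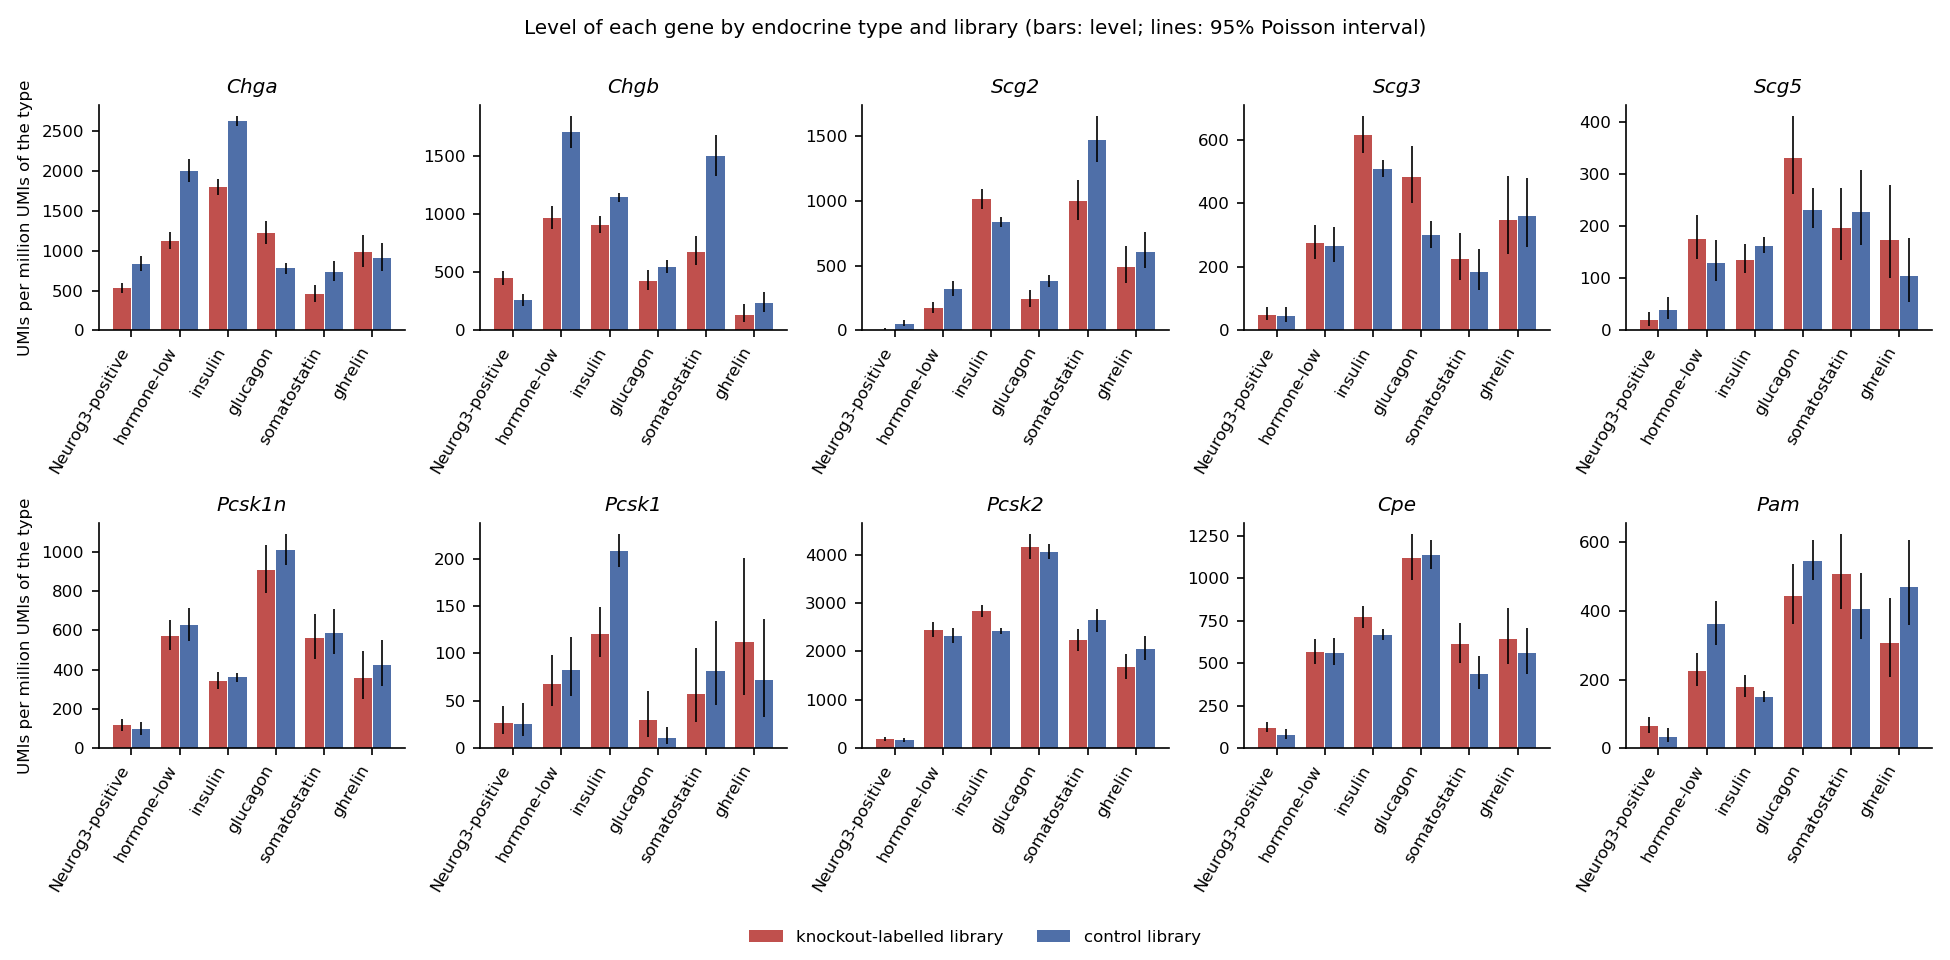
Level of each of the 10 genes (CPM of the type, linear axis from 0, scaled per gene) in the 6 endocrine types, with bars for the knockout-labelled library left of those for the control library and lines for exact Poisson 95% intervals of counting error. All 10 genes were lowest in Neurog3-positive cells, except that Chga was lower in somatostatin-leading cells of both libraries and in glucagon-leading control cells, Chgb was lower in ghrelin-leading cells of both libraries and in glucagon-leading cells of the knockout-labelled library, and Pcsk1 was lower in glucagon-leading control cells.

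The family set Neurog3-positive cells apart from hormone-low cells. In Neurog3-positive over hormone-low cells, all 10 genes were lower by more than 1.5-fold in the knockout-labelled library, where 21.6% of the genes tested were that much lower, and all 10 in the control library, where 22.7% were. The median log2 ratio of the 10 was -2.25 in the knockout-labelled library and -2.64 in the control library, beside -0.10 and -0.06 over all genes tested. Pcsk2 had 182 CPM in Neurog3-positive and 2444 CPM in hormone-low cells of the knockout-labelled library, and 166 and 2325 CPM in the control library. Its ratio of Neurog3-positive to hormone-low cells was 0.0744 and 0.0713 in these libraries. Chga was the least separated of the 10 in both, with a ratio of 0.477 in the knockout-labelled library and 0.417 in the control library. In Neurog3-positive cells Chga lay within counting error of its level in somatostatin-leading cells, whereas Pcsk2 was below its level in every other type.

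Chromogranin A (Chga), an acidic granin whose fragments act as peptides of their own, was highest in insulin-leading cells of both libraries, at 1797 CPM in the knockout-labelled library and 2632 CPM in the control library. In the knockout-labelled library glucagon-leading (1225 CPM), hormone-low (1121 CPM) and ghrelin-leading cells (981 CPM) followed with overlapping intervals, and Neurog3-positive (534 CPM) and somatostatin-leading cells (455 CPM) were lowest. In the control library hormone-low cells came next at 2005 CPM, and the ghrelin-leading (909 CPM), Neurog3-positive (837 CPM), glucagon-leading (778 CPM) and somatostatin-leading cells (737 CPM) could not be ordered beyond counting error. The place of glucagon-leading cells was thus the main difference between the libraries in this order.

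Chromogranin B (Chgb) is a related acidic granin. With all UMIs as the base it was highest in hormone-low cells, at 966 and 1703 CPM in the knockout-labelled and control libraries. Insulin-leading cells of the knockout-labelled library lay within counting error of that at 907 CPM, against 1142 CPM in the control library. Somatostatin-leading cells had 674 and 1496 CPM, glucagon-leading cells 426 and 548 CPM, and ghrelin-leading cells, the lowest, 133 and 231 CPM. With hormone UMIs left out of the base, insulin-leading cells were highest, at 1268 and 1821 CPM, against 981 and 1754 CPM in hormone-low cells. With all UMIs, the median hormone-low cell had 340 and 1223 CPM, and the median insulin-leading cell 679 and 989 CPM. The top hormone-low cell held 64 of 387 Chgb UMIs in the knockout-labelled library and 130 of 602 in the control library. Chga made up 88.1% of the summed Chga and Chgb UMIs in ghrelin-leading cells of the knockout-labelled library and 79.7% in those of the control library, and 40.3% and 33.0% in somatostatin-leading cells, so the balance of the chromogranins differed between these small types.

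Secretogranin II (Scg2), the precursor of secretoneurin, was nearly absent from Neurog3-positive cells, at 5.68 CPM in the knockout-labelled library and 51.8 CPM in the control library. It was highest in insulin-leading (1013 CPM) and somatostatin-leading cells (997 CPM) of the knockout-labelled library, which did not differ beyond counting error, and in somatostatin-leading cells of the control library (1469 CPM), above insulin-leading cells (835 CPM). Glucagon-leading and hormone-low cells lay low in both libraries, at 238 and 172 CPM in the knockout-labelled library and 378 and 317 CPM in the control library. Secretogranin III (Scg3), which binds chromogranin A and the granule membrane, was highest in insulin-leading cells, at 615 and 510 CPM, and had 485 and 300 CPM in glucagon-leading and 225 and 184 CPM in somatostatin-leading cells of the knockout-labelled and control libraries.

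The convertase helpers had another order. Scg5 encodes 7B2, the chaperone and inhibitor of PC2, and was highest in glucagon-leading cells, at 330 CPM in the knockout-labelled library and 232 CPM in the control library, with somatostatin-leading cells (196 and 228 CPM) within counting error. Pcsk1n encodes proSAAS, an inhibitor of PC1/3, and its 6 types stood in the same order in both libraries: glucagon-leading (907 and 1012 CPM), hormone-low (574 and 628 CPM), somatostatin-leading (559 and 585 CPM), ghrelin-leading (358 and 423 CPM), insulin-leading (343 and 361 CPM) and Neurog3-positive (117 and 98.4 CPM). Glucagon-leading cells stood alone at the top of that order, while hormone-low and somatostatin-leading cells overlapped in their intervals, as did ghrelin-leading and insulin-leading cells. The place of hormone-low cells in the knockout-labelled library rested on the sub-cluster of 88 cells. Outside it, glucagon-leading (887 CPM) and somatostatin-leading cells (589 CPM) led. Hormone-low (223 CPM), insulin-leading (221 CPM) and ghrelin-leading cells (182 CPM) followed.

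Of the convertases, Pcsk2 was highest in glucagon-leading cells, at 4164 CPM in the knockout-labelled library and 4062 CPM in the control library, and every glucagon-leading cell had at least 1 Pcsk2 UMI. The top place in the knockout-labelled library rested on the sub-cluster of 88 cells: outside it, glucagon-leading cells had 2111 CPM, against 2532 CPM in insulin-leading and 2303 CPM in somatostatin-leading cells. Insulin-leading cells had 2834 and 2426 CPM, somatostatin-leading cells 2231 and 2640 CPM, and ghrelin-leading cells 1676 and 2058 CPM. Pcsk1 was highest in insulin-leading cells, at 120 CPM in the knockout-labelled library and 208 CPM in the control library, with ghrelin-leading cells of the knockout-labelled library within counting error at 112 CPM (56.1 to 201). In glucagon-leading cells Pcsk1 had 7 UMIs in either library, or 29.3 CPM in the knockout-labelled library and 10.9 CPM in the control library, a level that overlapped that of Neurog3-positive cells (26.5 and 25.9 CPM).

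Cpe and Pam act after the convertases. Cpe was highest in glucagon-leading cells, at 1120 CPM in the knockout-labelled library and 1139 CPM in the control library, followed by insulin-leading cells at 773 and 668 CPM. Pam was highest in somatostatin-leading (507 CPM) and glucagon-leading cells (443 CPM) of the knockout-labelled library, which overlapped, and in glucagon-leading (546 CPM) and ghrelin-leading cells (471 CPM) of the control library. It was lowest, apart from Neurog3-positive cells, in insulin-leading cells at 179 and 150 CPM.

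Hormone transcripts took 28.4% of the UMIs of insulin-leading cells in the knockout-labelled library and 37.3% in the control library, against 7.71% and 9.78% in glucagon-leading cells, and this lowers the level of every other gene in insulin-leading cells. Types were therefore compared per UMI that did not come from a hormone gene. On that scale glucagon-leading over insulin-leading cells had 3 of the 10 genes more than 1.5-fold higher and 5 lower in the knockout-labelled library, where 13.1% and 23.8% of the genes tested were, and 2 higher and 5 lower in the control library, where 17.5% and 22.3% were. The granins Chga, Chgb, Scg2 and Scg3 and the convertase Pcsk1 were the 5 lower ones in both libraries. Pcsk1n, with ratios of 2.05 (1.70 to 2.47) in the knockout-labelled library and 1.95 (1.76 to 2.16) in the control library, and Pam, with 1.92 (1.47 to 2.51) and 2.53 (2.19 to 2.93), were higher in both.

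The libraries differed in the size of this contrast for several granins and for Pcsk1. The ratio of glucagon-leading to insulin-leading cells for Chga was 0.529 (0.464 to 0.601) in the knockout-labelled library and 0.206 (0.187 to 0.225) in the control library. That for Pcsk1 was 0.189 (0.0737 to 0.406) and 0.0364 (0.0146 to 0.0755), from 7 UMIs in the glucagon-leading cells of either library, and these intervals just overlap. For Scg2 the order was turned round, with 0.182 in the knockout-labelled library and 0.315 in the control library. Scg5 had 1.88 (1.38 to 2.57) in the knockout-labelled library and 0.991 in the control library, while Pcsk2 (1.14 and 1.16) and Cpe (1.12 and 1.19) were near 1 in both. The Pcsk2 value of the knockout-labelled library joined 1.40 (1.26 to 1.55) inside the sub-cluster of 88 cells and 0.617 (0.532 to 0.712) outside it, and that of Cpe joined 1.46 (1.16 to 1.83) and 0.934 (0.745 to 1.16). That of Pcsk1n joined 1.26 (0.979 to 1.62) inside, an interval that held 1, and 2.96 (2.22 to 3.95) outside. For Chga the ratio was below 1 in both, at 0.489 inside and 0.668 outside. The Scg2 value joined 0.445 (0.289 to 0.671) inside, an interval that held the control value, and 0.143 (0.0919 to 0.213) outside. That of Scg5 joined 1.36 (0.840 to 2.20) inside, an interval that held 1, and 2.48 (1.62 to 3.77) outside. With all UMIs as the base, 3 genes were higher and 3 lower in the knockout-labelled library, where 28.7% and 12.5% of genes were, and 4 higher and 5 lower in the control library, where 44.3% and 9.46% were.

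**Figure D2:**
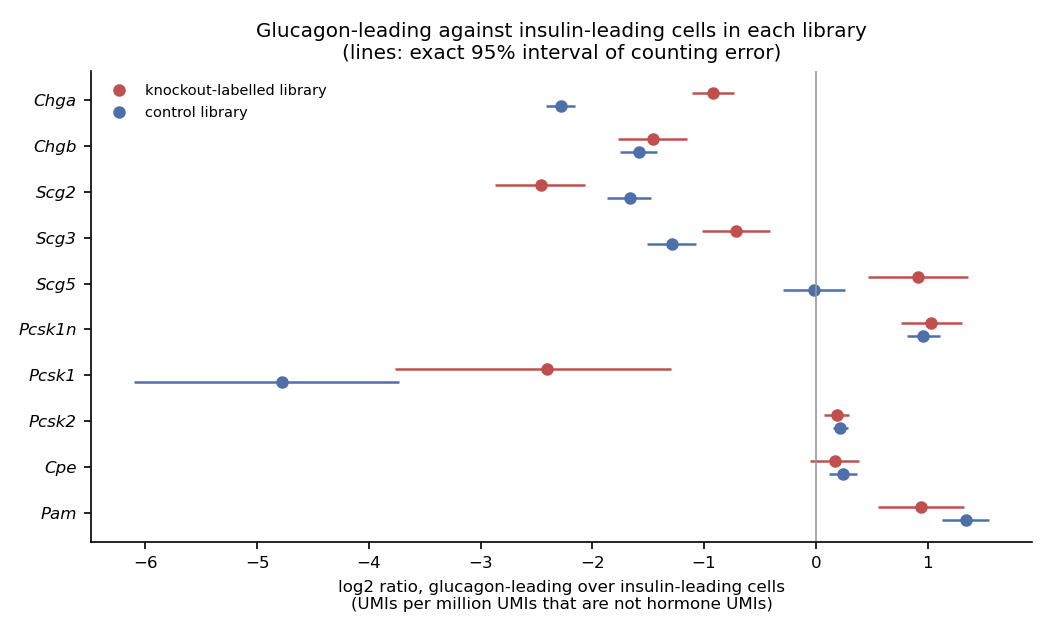
Log2 ratio of the level in glucagon-leading cells to that in insulin-leading cells for each gene, per UMI not from a hormone gene, with points for the knockout-labelled and control libraries and lines for exact 95% intervals of counting error. As ratios, the intervals of Chga do not overlap between the libraries (0.464 to 0.601 and 0.187 to 0.225), while those of Pcsk1n do (1.70 to 2.47 and 1.76 to 2.16). The Pcsk1n value of the knockout-labelled library joins 1.26 inside the sub-cluster held by that library and 2.96 outside it.

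Somatostatin-leading over insulin-leading cells had 1 gene higher and 6 lower in the knockout-labelled library (11.8% and 26.3% of all genes) and 1 higher and 4 lower in the control library (21.5% and 27.3%). Pam was the higher one in both, with ratios of 2.34 (1.76 to 3.10) and 1.99 (1.53 to 2.55). Chga had nearly the same ratio in both, 0.209 and 0.206, and Scg3 0.301 and 0.265. The sub-cluster of 88 cells held 2 of the 19 somatostatin-leading and 23 of the 57 insulin-leading cells of the knockout-labelled library. Inside it Chga had 0.337 and Pcsk1n 0.421 (0.152 to 0.941). Outside it Chga had 0.179, and Pcsk1n, at 2.11 (1.58 to 2.81), was past the fold beside Pam, at 2.62. Hormone-low over insulin-leading cells had 6 genes lower and none higher in the knockout-labelled library (18.6% and 14.8% of all genes) and 7 lower and 1 higher in the control library (21.6% and 18.7%). Scg2 was the furthest below 1 in both, at 0.124 and 0.245, and Pcsk1n lay above 1 in both, at 1.22 and 1.13, within the fold used. The Pcsk1n value of the knockout-labelled library joined 1.16 (0.921 to 1.46) inside the sub-cluster of 88 cells and 0.695 (0.476 to 0.997) outside it. Pcsk2 had 0.844 inside and 0.304 outside, and Cpe 0.828 and 0.333.

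The convertase pair was also read as Pcsk1's share of the summed Pcsk1 and Pcsk2 UMIs, a quantity that no other gene's level enters. In Neurog3-positive cells the share was 12.7% (7.14 to 20.4) in the knockout-labelled library and 13.5% (6.68 to 23.4) in the control library. It was 2.68% and 3.41% in hormone-low cells, 4.07% (3.26 to 5.01) and 7.90% (7.27 to 8.56) in insulin-leading cells, and 0.698% and 0.267% in glucagon-leading cells. The intervals of the libraries were apart in insulin-leading cells and overlapped in Neurog3-positive cells.

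The genes lie at 10 separate loci, given here in GRCm38 with the GENCODE M21 annotation. Chga lies at chr12:102554969-102565028 on the plus strand, Chgb at chr2:132781278-132795079 (plus), Scg2 at chr1:79434669-79440120 (minus) and Scg3 at chr9:75643189-75684056 (minus). Scg5 lies at chr2:113776362-113829121 (minus) and Pcsk1n at chrX:7919822-7924410 (plus), where Eras overlaps its 3' end on the opposite strand. Pcsk1 lies at chr13:75089826-75134861 (plus), Pcsk2 at chr2:143546156-143816285 (plus), Cpe at chr8:64592542-64693054 (minus) and Pam at chr1:97795114-98095646 (minus).

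Granin and convertase promoters are textbook examples of genes with a cyclic AMP response element (CRE), which binds factors of the CREB and ATF family, so the promoters of these genes were searched for it. RefSeq promoters (GRCm38.p6, 250 bases before to 50 after the start) were at hand for 9 of the 10, and the full element TGACGTCA, which reads the same on both strands, occurred in those of Chgb, Scg2 and Pcsk1. It occurred in 1.79% of the 32851 promoters searched. The core TGACGT, which lies within the full element and was searched on both strands, occurred also in Chga and Scg5 and in 7.51% of all promoters. The sites are printed on the strand of the gene, 5' to 3', with capitals marking the element or its core. They span chr12:102554885-102554914 (plus strand), chr2:132781559-132781588 (plus), chr1:79440076-79440105 (minus), chr13:75089768-75089797 (plus) and chr2:113829249-113829278 (minus) in the order given.
Chga: ggggcggtcctaTGACGTaatttcctgggt
Chgb: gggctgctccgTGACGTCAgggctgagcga
Scg2: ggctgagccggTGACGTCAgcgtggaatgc
Pcsk1: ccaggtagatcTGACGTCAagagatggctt
Scg5: aaaggaggtaaaTGACGTtcataggggtcg
The first capital lies at base -44 from the RefSeq start in Chga, -72 in Chgb, -68 in Scg2, -78 in Pcsk1 and -175 in Scg5. Pcsk1 holds another core at -50 and Scg5 another at 40 bases past the start. The same letters were not in the windows of Scg3, Pcsk1n, Pcsk2 and Pam. The E-box CAGATG (17.2% of all promoters) was in none of the 9, and the E-box CAGCTG (16.3%) in those of Chga, Chgb and Pcsk2 and in 1 of the 2 windows of Pam.

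Between the libraries, the ratio of the knockout-labelled to the control library over all endocrine cells was below 1 for each of the 10 genes. Chga had 1148 CPM in the knockout-labelled library and 2010 CPM in the control library, a ratio of 0.571 (0.546 to 0.598), and Pcsk1 had a ratio of 0.503 (0.418 to 0.601). These 2 were lower by more than 1.5-fold, as were 6.02% of the genes tested, and none of the 10 was higher, as 22.3% were. The median log2 ratio of the 10 was -0.19, beside 0.26 over all genes tested. Hormone genes gave 11.8% of the endocrine UMIs in the knockout-labelled library and 25.2% in the control library. Without hormone UMIs the median of all genes was 0.02 and that of the 10 was -0.43, with Chga, Chgb, Scg2 and Pcsk1 more than 1.5-fold lower, as were 11.3% of the genes tested.

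These pooled ratios mix the makeup of the endocrine cells with the level within a type. Neurog3-positive cells made up 25.2% of the endocrine cells of the knockout-labelled library and 11.8% of those of the control library, and insulin-leading cells 24.4% and 44.9%. With the 4 larger types given equal weight, the log2 ratio was -0.42 for Chga, -0.41 for Chgb, -0.15 for Scg2 and -0.43 for Pcsk1, with a median of -0.13 over the 10 genes. Of the 12 acinar markers, 9 had UMIs in endocrine cells of the knockout-labelled library and 8 in those of the control library. Their summed level ranged over the types from 461 to 1770 CPM and from 166 to 379 CPM, with Pnlip, Amy2a2 and Gp2 at 0 in both. Of 14 mesenchymal markers 13 were higher in endocrine cells of the knockout-labelled library, and their summed level was 1854 CPM there and 1269 CPM in the control library, ranging over the types from 866 to 2750 CPM and from 646 to 2212 CPM, with none at 0. All 8 erythroid markers were higher too, at 9245 and 7197 CPM in sum. The part of these markers in the ratios was not tested.

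**Figure D3:**
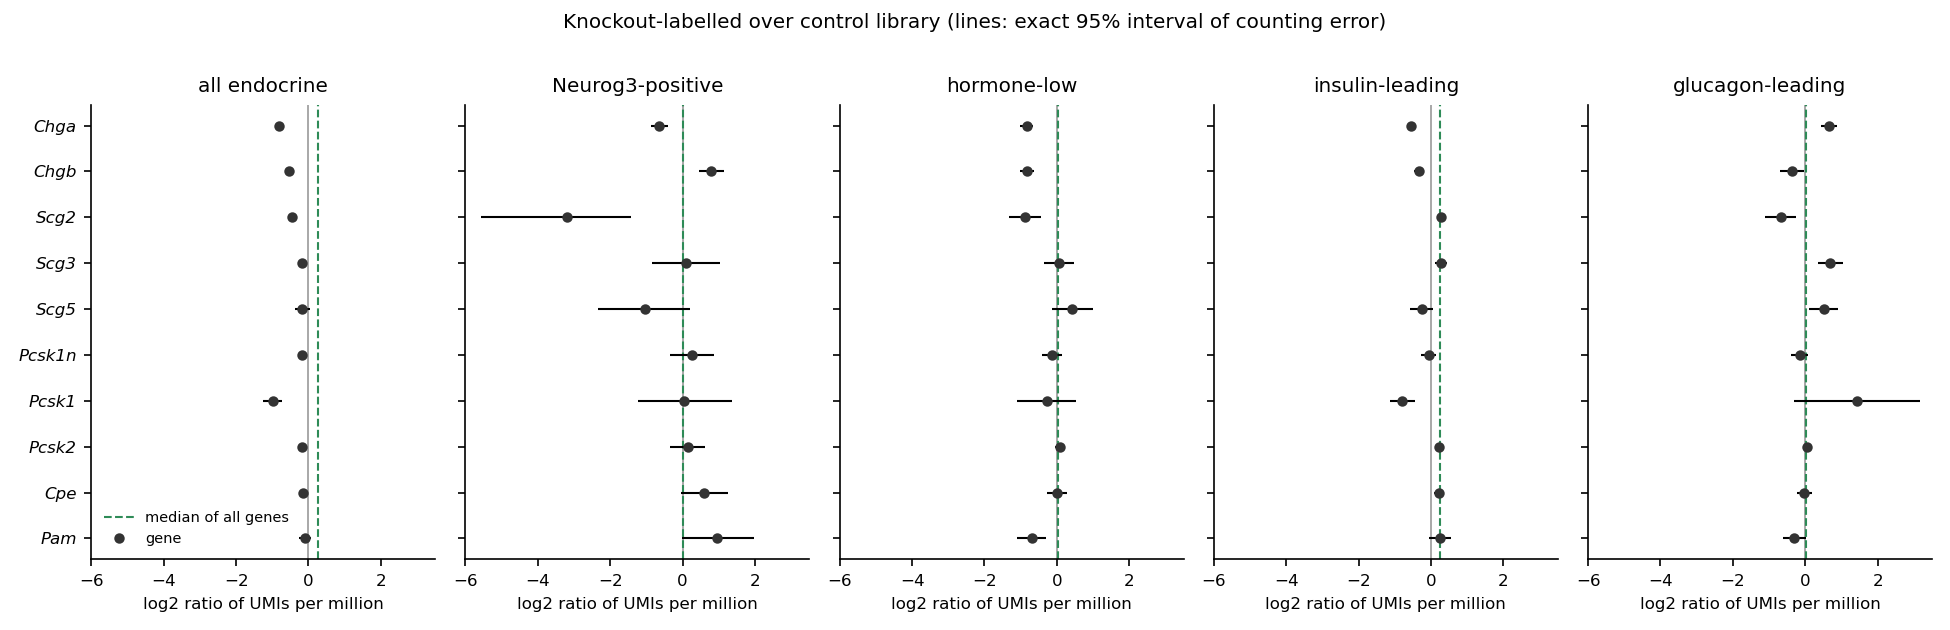
Log2 ratio of the knockout-labelled to the control library for each gene in all endocrine, Neurog3-positive, hormone-low, insulin-leading and glucagon-leading cells, with lines for exact 95% intervals of counting error and a dashed line for the median of all genes tested. As a ratio, Chga lies below 1 in Neurog3-positive, hormone-low and insulin-leading cells (0.639, 0.559 and 0.683) and above 1 in glucagon-leading cells (1.57).

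Insulin-leading cells had 1 gene more than 1.5-fold lower, as were 7.42% of the genes tested, and none higher, as 24.3% were. The gene was Pcsk1, with 84 UMIs (120 CPM) in the knockout-labelled library and 541 UMIs (208 CPM) in the control library and a ratio of 0.578 (0.453 to 0.728). Chga had a ratio of 0.683 (0.642 to 0.725), with 1 cell of the knockout-labelled library that held 206 of its 1256 UMIs and without which the ratio was 0.599, and Chgb 0.794 (0.728 to 0.865). Per UMI not from a hormone gene these ratios were 0.506 for Pcsk1, 0.598 for Chga and 0.696 for Chgb, so that Chga also passed the fold, as did 11.2% of the genes tested. On the same scale Scg2 (1.06), Scg3 (1.06), Pcsk2 (1.02), Cpe (1.01) and Pam (1.05) had intervals that held 1, while Scg5 (0.732) and Pcsk1n (0.834) did not. The 2 convertases of proinsulin thus differed in their ratio between the libraries. The share of insulin-leading cells with a Pcsk1 UMI was 63.2% in the knockout-labelled library and 85.4% in the control library, and 15.8% and 36.2% at 2000 UMIs per cell. No endothelial-like cell held a Pcsk1 UMI in either library. The endocrine sub-cluster of 7 and 76 cells held 7 of the 57 knockout-labelled and 75 of the 164 control insulin-leading cells. These cells were kept in the insulin-leading values given here. Over the alternative processing settings the log2 ratio in this type ranged from -0.69 to 0.76 for Pam and from -0.99 to 0.02 for Pcsk1n.

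Hormone-low cells had 4 of the 10 genes more than 1.5-fold lower, as were 12.1% of the genes tested, and none higher, as 14.5% were. They were Chga at 1121 and 2005 CPM in the knockout-labelled and control libraries, with a ratio of 0.559 (0.496 to 0.630), Chgb with 0.567 (0.498 to 0.646), Scg2 with 0.544 (0.397 to 0.741) and Pam with 0.621 (0.469 to 0.819). The median cell had 988 CPM of Chga in the knockout-labelled library and 1964 CPM in the control library. Pcsk2 (1.05, 0.957 to 1.15) and Cpe (1.00, 0.825 to 1.22) had ratios close to 1. For Chgb 1 control cell held 130 of the 602 UMIs, and without it the ratio was 0.701 (0.611 to 0.804), short of the fold. Ductal markers summed to 2282 CPM in hormone-low cells of the knockout-labelled library and 4347 CPM in those of the control library, and their part was not tested.

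Glucagon-leading cells were the type in which Chga stood higher in the knockout-labelled library, at 1225 CPM, against 778 CPM in the control library, a ratio of 1.57 (1.36 to 1.82). Scg3 had a ratio of 1.61 (1.27 to 2.04) and Scg5 1.42 (1.07 to 1.88). Of the 9 genes with at least 20 UMIs there, Chga and Scg3 were more than 1.5-fold higher, as were 15.3% of the genes tested, and Scg2, with 0.630 (0.464 to 0.844), was lower, as were 15%. Without the 1 knockout-labelled cell that held most UMIs of the gene, the ratios of Chga and Scg3 were 1.40 (1.2 to 1.63) and 1.45 (1.12 to 1.85), short of the fold. Pcsk1, with 14 UMIs in all, had a ratio of 2.69 (0.804 to 8.97). Pcsk2, at 1.03 (0.952 to 1.10), and Cpe, at 0.984, had intervals that held 1. The ratio of Chgb, 0.778 (0.618 to 0.973), moved to a log2 value of 0.09 or 0.03 where the hormone threshold was set at 0.5% or 3% of a cell's UMIs.

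Neurog3-positive cells had 3 genes more than 1.5-fold higher, as were 12.5% of the genes tested, and 3 lower, as were 11.9%, from small counts. Chga had 282 UMIs (534 CPM) in the knockout-labelled library and 323 UMIs (837 CPM) in the control library, a ratio of 0.639 (0.542 to 0.752). Chgb had a ratio of 1.73 (1.37 to 2.21), but 1 cell gave 78 of its 237 UMIs in the knockout-labelled library and 1 cell 36 of 100 in the control library. With 1 Neurog3 UMI as the threshold in place of 2 the log2 ratio of Chgb was -0.33 in place of 0.79, so that its direction rests on how the type is cut. Without the 1 knockout-labelled cell with most UMIs of the gene, Chgb (1.18), Cpe (1.32) and Pam (1.37) fell short of the fold. Without the 1 such control cell Chga (0.731) fell short of it, while Pcsk1n (1.60) and Pcsk2 (2.32) passed it. The others past the fold were Pam, with 34 and 13 UMIs, and Cpe (1.51, 0.969 to 2.40) among the higher, and Scg2, with 3 and 20 UMIs of which 1 control cell gave 11, and Scg5, with 10 and 15, among the lower.

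The sub-cluster of 88 knockout-labelled cells was found without the 10 genes among those used for clustering, and 36 of the 88 were hormone-low, 23 insulin-leading and 18 glucagon-leading. A cluster mostly of 1 library may be that library and not a cell type. Because the types of the knockout-labelled library cut across it, each type was described inside and outside it.

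Transcripts of the convertase gene Pcsk2 and the helper gene Pcsk1n stood high inside the sub-cluster among hormone-low cells. In hormone-low cells of the knockout-labelled library Pcsk2 had 3678 CPM in the 36 cells of the sub-cluster and 1115 CPM in the other 22, against 2325 CPM in the 43 control cells. Pcsk1n had 900 CPM inside, 223 CPM outside and 628 CPM in control cells. For the sub-cluster over the other hormone-low cells of its library the ratio was 3.30 (2.83 to 3.86) for Pcsk2 and 4.04 (2.88 to 5.76) for Pcsk1n, and 7 of the 10 genes were higher, as were 25.7% of the genes tested. Chgb ran the other way, at 703 CPM inside, 1250 CPM outside and 1703 CPM in control cells, and was the only one lower, as were 11.8%.

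The near-equal Pcsk2 level of the libraries in hormone-low cells therefore came from a high group and a low group. Against control cells, the 22 cells outside the sub-cluster had ratios below 1 for all 10 genes, with 6 more than 1.5-fold lower, as were 18.8% of the genes tested, none higher, as 11.1% were, and a median log2 ratio of -0.92 beside -0.08 over all genes. The 36 cells inside had 2 genes higher and 2 lower, as were 19% and 13.6% of the genes tested, and a median of 0.14 beside 0.11. Chga was below the control level in both, at 1386 CPM inside and 835 CPM outside, against 2005 CPM in control cells. Makeup differed between the 22 cells outside and the control cells. Sub-clusters made up mostly of Neurog3-positive cells held 3, 5 and 2 of the 22 and 0, 2 and 4 of the control cells. That mostly of glucagon-leading cells held 0 and 9, and that mostly of somatostatin-leading cells 2 and 7. The part of this makeup in the ratios was not tested.

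Among insulin-leading cells the sub-cluster held 23 of the 57 cells, with a median of 7900 UMIs inside, 14483 outside and 14877 in the control library. Insulin gave 15.5% of their UMIs inside, 27.1% outside and 33.3% in control cells. Pcsk1 had 67.8 CPM inside, 142 CPM outside and 208 CPM in control cells, with ratios to control cells of 0.326 (0.177 to 0.552) inside and 0.683 (0.525 to 0.878) outside. Chga had 1453, 1941 and 2632 CPM in the same order. Both were therefore below the control level in both groups, whereas Scg2 was below it inside (460 CPM) and above it outside (1245 CPM), against 835 CPM in control cells. Against control cells Pcsk1n was the 1 gene higher inside, as were 39.1% of the genes tested, and Chga, Scg2 and Pcsk1 were the 3 lower, as were 16.1%. Outside none was higher, as 18.9% were, and Pcsk1n was the 1 lower, as were 10.2%, with 634 CPM inside, 221 CPM outside and 361 CPM in control cells. Hormone genes gave 19.6% of the UMIs inside, 32.2% outside and 37.3% in control cells, and without them Pcsk1n inside was within the fold at 1.37 (1.13 to 1.65). On that scale none of the 10 was higher inside, as 22.2% of the genes tested were, and Chga, Chgb, Scg2 and Pcsk1 were lower, as were 23.7%, while outside Pcsk1n and Pcsk1 were lower, as were 13%.

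In glucagon-leading cells the sub-cluster held 18 of the 29 cells. Chga had 820 CPM inside and 1754 CPM in the 11 cells outside, against 778 CPM in the control library, so that its higher level in this type came from those 11 cells. Pcsk2 had 5737 CPM inside and 2111 CPM outside, against 4062 CPM in control cells, and Scg3 606, 328 and 300 CPM. Of the helpers, Pcsk1n had 923, 887 and 1012 CPM in the same order, and Scg5 281, 395 and 232 CPM. Groups of 11 and 18 cells of a single pancreas allow no more than this description.

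**Figure D4:**
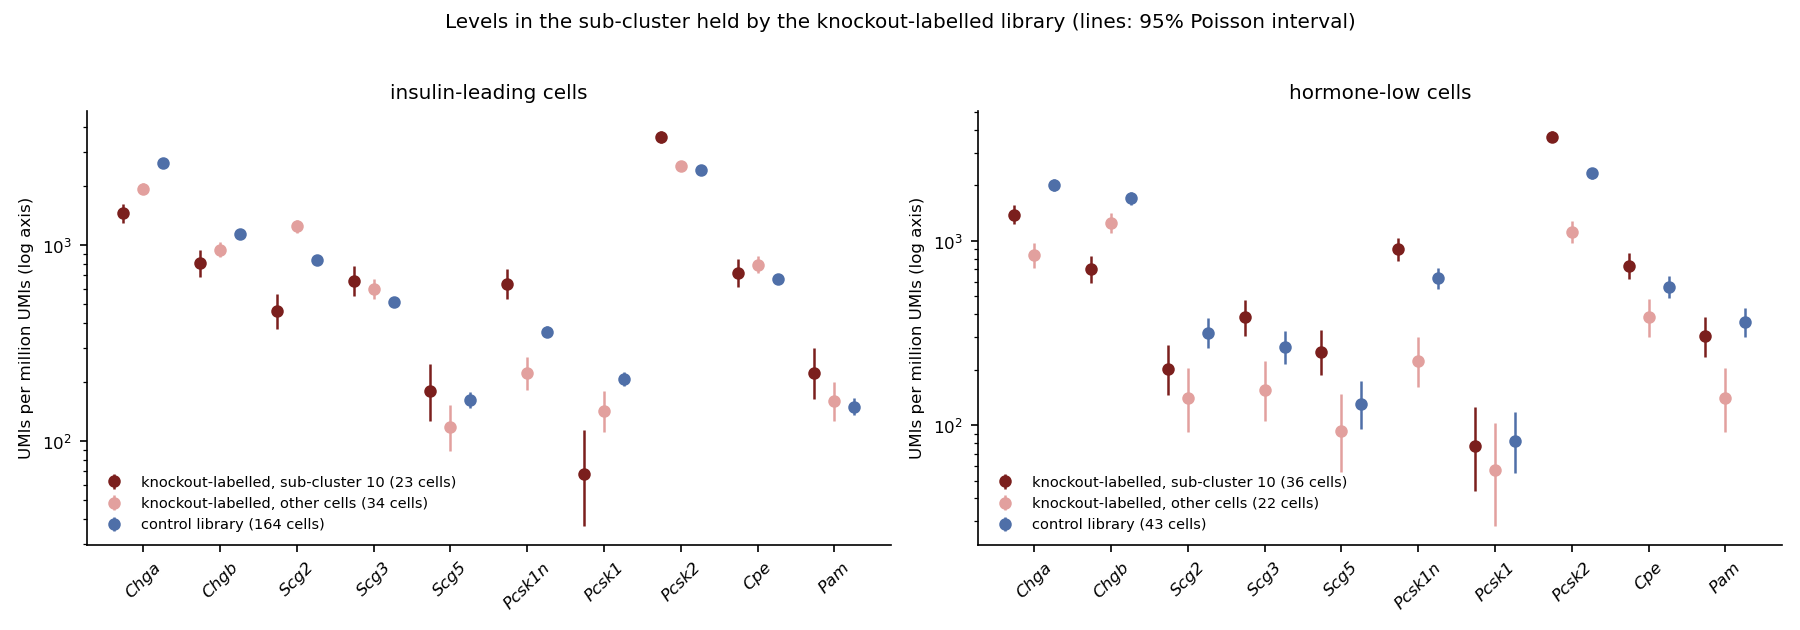
Level of the genes (CPM, log axis) in insulin-leading and in hormone-low cells of the knockout-labelled library inside and outside the sub-cluster held by that library, and in control cells, with lines for exact Poisson 95% intervals of counting error. In hormone-low cells Pcsk2 stands at 3678 CPM inside, 1115 CPM outside and 2325 CPM in control cells.

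Over all endocrine types together the sub-cluster exceeded the other cells of its library more than 1.5-fold in 6 of the 10 genes, as in 21% of the genes tested, and was lower in 1, as in 13.5%. The 6 were Pcsk1n (2.96, 2.59 to 3.39), Pcsk2 (2.83, 2.67 to 3.0), Scg5 (2.16), Scg3 (1.87), Pam (1.84) and Cpe (1.78), and the lower one was Scg2 (0.526). Makeup differed between these groups, with 3 of the 88 cells inside and 56 of the 146 outside Neurog3-positive. Within insulin-leading cells Scg5 and Pcsk1n were higher inside, as were 25.4% of the genes tested, Scg2 and Pcsk1 were lower, as were 11.2%, and Scg3 (659 CPM inside and 597 CPM outside) and Cpe (722 and 794 CPM) were within the fold. Without the sub-cluster, the knockout-labelled endocrine cells had Chga, Scg5, Pcsk1n, Pcsk1 and Pcsk2, 5 of the 10 genes, more than 1.5-fold lower than control cells, as were 7.86% of the genes tested, none higher, as 20% were, and a median log2 ratio of -0.55 beside 0.19 over all genes. Without hormone UMIs, which were 13% of the total in these cells and 25.2% in control cells, all but Scg2 were lower, or 9 of the 10, as were 13.8% of the genes tested, with a median of -0.77 beside -0.03. Of these cells 56 of 146 were Neurog3-positive, against 43 of 365 control cells.

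Within insulin-leading cells, cells were ranked by the share of their UMIs that came from insulin and divided into groups of 19 cells in the knockout-labelled library and of 55, 55 and 54 cells in the control library. Median insulin shares from the lowest to the highest group were 5.47%, 17.6% and 35.9% in the knockout-labelled library and 17.7%, 32.7% and 44.7% in the control library. The highest over the lowest group had a ratio of 3.71 (2.99 to 4.65) in the knockout-labelled library and 1.46 (1.31 to 1.63) in the control library for Scg2, 3.14 (1.74 to 6.02) and 1.41 (1.14 to 1.75) for Pcsk1, and 1.98 (1.73 to 2.26) and 1.36 (1.28 to 1.45) for Chga. Levels of the lowest, middle and highest group of the knockout-labelled library, per 1000000 UMIs not from hormone genes, were 666, 1080 and 2472 for Scg2, 95.1, 109 and 299 for Pcsk1, and 2060, 1423 and 4072 for Chga, whose middle group was thus the lowest. Scg5 had ratios of 1.29 (0.765 to 2.20) and 2.18 (1.70 to 2.82), Chgb 1.57 and 1.23, Scg3 1.59 and 1.19, and Cpe 1.5 and 1.18. Those of Pcsk2 were 1.07 (0.959 to 1.2) and 1.11 (1.04 to 1.18), those of Pcsk1n 0.907 and 0.937, and those of Pam 0.802 (0.512 to 1.25) and 0.764 (0.597 to 0.974). The groups of the knockout-labelled library spanned a wider range of insulin share, and 11, 9 and 3 of their cells lay in the sub-cluster.

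Across the 4 larger types of both libraries (8 points, which share library and depth within each library), the levels of Pcsk2 and Cpe followed each other most closely, with a Pearson correlation of 0.99 of log2 levels. Those of Pcsk1n and Pam had 0.98, those of Chga and Pcsk1 0.86, while Pcsk1 had 0.26 with Pcsk2 and -0.04 with Pam. Outside the family, the pattern most like that of Pcsk2 was that of Gnas (0.99), most like that of Pcsk1 that of Mlxipl (0.96), and most like that of Chga that of Frzb (0.96). For Pcsk1n it was Slc38a5 (0.99), for Scg3 Papss2 (0.98), for Scg2 Gmpr (0.98), for Scg5 Snap25 (0.98), for Chgb Cryba2 (0.94), for Cpe Disp2 (0.99) and for Pam Wnk3 (0.99).

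The wider secretory pathway was read from 8 lists of 107 genes, over all endocrine cells and against the same 22.3% higher and 6.02% lower of all genes. Of 10 measured genes for granin-like cargo and granule membrane, 6 were more than 1.5-fold lower and none higher, with a median log2 ratio of -0.74. Slc30a8, the zinc transporter of the insulin granule, had 153 CPM in the knockout-labelled library and 384 CPM in the control library, a ratio of 0.398 (0.352 to 0.448). Ptprn, a granule membrane protein also called IA-2, had 34.1 and 72.0 CPM. Of 22 measured genes for exocytosis, 5 were lower and none higher (median -0.21), among them Sytl4, which encodes granuphilin, at 88.4 and 178 CPM, and Rab27a, its GTPase partner, at 50.1 and 75.3 CPM. The values of these named genes pool all endocrine cells, of which 24.4% and 44.9% were insulin-leading. The lowest log2 ratio of a measured cargo gene was -1.52 in this pool and -0.64 in insulin-leading cells. The part of makeup was not tested. Within the types, other shares of all genes tested were higher and lower. They were 24.3% and 7.42% in insulin-leading and 15.3% and 15% in glucagon-leading cells. In hormone-low cells they were 14.5% and 12.1%, and in Neurog3-positive cells 12.5% and 11.9%. Beside these, 2 of 9 measured cargo genes were higher and 2 lower in insulin-leading cells (median -0.34, beside 0.25 over all genes). In glucagon-leading cells 1 of 7 passed the fold each way (median -0.06), and in hormone-low cells 1 of 6 each way (median 0.15). None of 3 passed it in Neurog3-positive cells. Of the exocytosis genes, 1 was higher and 2 lower of 21 in insulin-leading cells, none higher and 1 lower of 16 in glucagon-leading cells, 2 higher and 4 lower of 14 in hormone-low cells, and 1 each way of 10 in Neurog3-positive cells.

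Other steps of the pathway lay nearer to all genes. Of 5 other convertases measured, 1 was lower and none higher (median -0.01), and Furin, the convertase of the constitutive pathway, had 20.6 CPM in the knockout-labelled library and 20.7 CPM in the control library. Of 9 other peptide trimming enzymes 3 were higher (median 0.31), among them Cpn1, the catalytic subunit of carboxypeptidase N, at 52.4 and 32.4 CPM, while Ctsl, a lysosomal protease, had 156 and 106 CPM and did not reach the fold. Of 6 genes that supply Pam with copper and ascorbate 1 was higher (median 0.14), the copper pump gene Atp7a at 32.3 and 18.4 CPM. None of 13 genes for granule acidification passed the fold in either direction (median 0.02), and 1 of 9 sorting genes was lower (median 0.11), Bace2 at 21 and 52.9 CPM. Of 17 transcription factors of endocrine cells 3 were higher (median 0.19), among them Neurog3 at 720 and 341 CPM and Rfx3 at 68.3 and 38.0 CPM. Neurog3 UMIs also define the Neurog3-positive type, so the Neurog3 level and the share of that type are not independent.

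Cpe and Pam were also transcribed in other classes of pancreatic cells. Cpe in acinar-like cells had 130 CPM in 758 cells of the knockout-labelled library and 40.6 CPM in 112 cells of the control library, a ratio of 3.21 (2.37 to 4.45), with 24.1% of the genes tested more than 1.5-fold higher in that class. That ratio followed the clusters that made up the class. An acinar-like cluster of 436 and 3 cells had 173 CPM in the knockout-labelled library, while a cluster of 260 and 92 cells had 42.3 and 47.2 CPM, a ratio of 0.896 (0.612 to 1.33). In mesenchymal-like cells Cpe had 181 and 200 CPM, in pericyte-like cells 127 and 146 CPM and in ductal-like cells 2.50 and 1.91 CPM. Pam had 68.9 and 88.0 CPM in endothelial-like, 59.3 and 57 CPM in mesenchymal-like, and 48.0 and 76.4 CPM in mesothelial-like cells, where its ratio was 0.629 (0.461 to 0.851) and 9.97% of the genes tested were more than 1.5-fold lower.

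A cluster of 9 and 7 cells led by neuronal genes also held granin transcripts. Pcsk1n had 515 CPM there in the knockout-labelled library and 600 CPM in the control library, Chgb 278 and 98.0 CPM, and Scg2 134 and 172 CPM. Pcsk1 was at 0 UMIs in both. The Pcsk1n values stood above the 412 and 468 CPM of all endocrine cells of these libraries, but came from few cells.

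**Figure D5:**
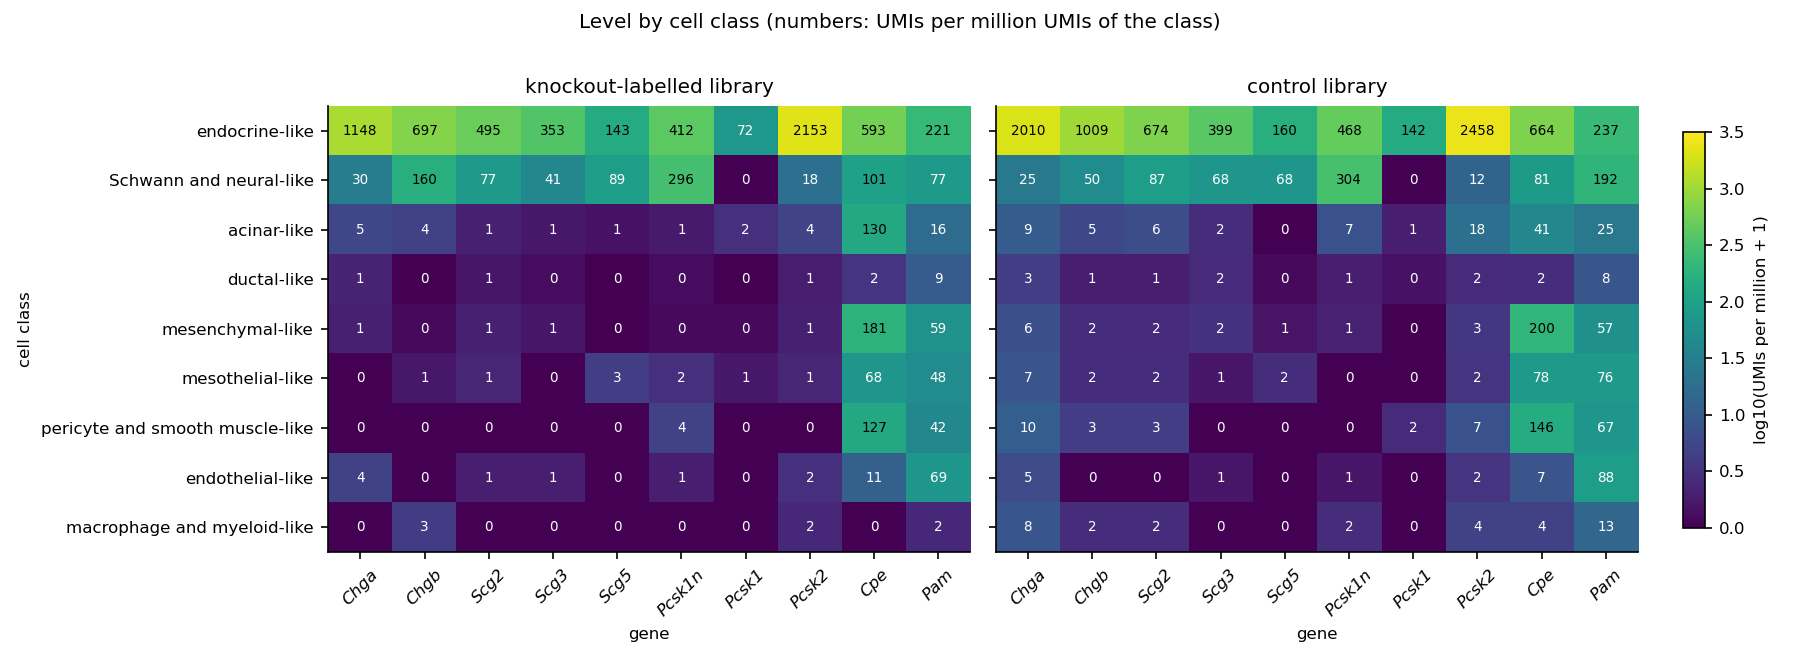
Level of the 10 genes in the cell classes of the knockout-labelled library (left) and the control library (right), with CPM printed in each square and colour for log10 of CPM plus 1. Endocrine cells hold the highest level of each gene among these classes, and Cpe (181 and 200 CPM) and Pam (59.3 and 57 CPM) extend to mesenchymal-like cells. The cluster led by neuronal genes is pooled here with Schwann-like cells.

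In the authors' deposited table of cluster markers all 10 genes were listed, in 3 of its 14 clusters. The cluster led by Ppp1r1a, Nnat, Tmem215, Sytl4 and Chga listed 8 of them. In the authors' deposited table Pcsk1 was detected in 98.9% of its cells and 48.9% of the others, Scg3 in 99.3% and 52.7%, and Scg2 in 98.6% and 67.9%. The cluster led by Lgi1, Tmem27 and Irx2 listed Pcsk1n, detected in 100% of its cells and 66.3% of the others, and Cpe, in 99.7% and 78.8%, per the authors' deposited table. That led by Tuba1a and Pax6 listed Chgb, in 89.9% of its cells and 66.5% of the others, with Scg5 and Pam, per the authors' deposited table. Its clusters could not be tied to the types above cell by cell. Its shares in other cells are not comparable with those of the classes above. There 0.847% and 0.559% of endothelial-like cells of the knockout-labelled and control libraries held a Pcsk1n UMI.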

How the data were processed

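The authors deposited raw UMI counts per gene and barcode for 2 libraries (10x Chromium 3' chemistry), made with Cell Ranger 3.0.0 per the file headers; Seurat 2 and 3, GRCm38 and mm10 are named in the submitters' processing notes. A deposited marker table gives the authors' p-values, a fold-change score of unstated log base that was not used, and the fraction of cells with each gene, copied here as percent. Barcodes numbered 4779 in the knockout-labelled library and 3986 in the control library, with 33048640 and 25398522 UMIs. Removed were barcodes with fewer than 500 genes (1465 and 1290), barcodes above 10% mitochondrial UMIs (57 and 63) and 24 and 22 doublets called with Scrublet in scanpy 1.11.5. Cells were clustered (2000 variable genes, 30 components, 15 neighbours, Leiden resolution 1) without the 10 genes and named from fixed marker lists. UMIs were then summed per type and library with Python 3.11.15 and SciPy 1.17.1. CPM intervals are exact Poisson, shares exact Clopper-Pearson and ratios exact conditional binomial, at 95%. Genes needed at least 20 UMIs, and 1.5-fold was used as the mark of size. Scripts were tested on simulated data. The members, lists and types were chosen with earlier results of these data known; members were all named, and of each other list, among genes with at least 100 UMIs, the 2 with most UMIs and the 2 whose interval bound nearest 1 lay furthest from it. Promoter sequences were RefSeq's, with chromosome 18 left out.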

Additional observations from a re-analysis of the deposited data

Results flagged for a closer look

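Chga moved in opposite directions between types. Its ratio of the knockout-labelled to the control library was 1.57 in glucagon-leading cells, against 0.639 in Neurog3-positive cells and 0.559 in hormone-low cells. Chgb had a ratio of 1.73 in Neurog3-positive cells, against 0.567 in hormone-low cells. With 1 library per group these differences between types were not tested, and the direction of Chgb in Neurog3-positive cells turned with the Neurog3 threshold.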

How the results depend on the processing

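No paired analysis was possible because each group holds 1 library and no test was run. Of the values that summarise a comparison, 84 stayed within their counting interval under the alternatives and 10 moved; of single gene ratios 641 stayed, 116 moved and 1 reversed. Reversal was counted only for ratios past 1.5-fold with an interval that left out 1. In all, 52 other values also changed sign, such as Pcsk2 in hormone-low cells, with a log2 ratio of -1.09 without the sub-clusters held by 1 library. The reversed one was Chgb in Neurog3-positive cells, with a log2 ratio of -0.33 where 1 Neurog3 UMI was enough. Over all endocrine cells the median log2 ratio of the 10 genes, -0.19, was -0.43 without hormone UMIs, -0.45 scaled to the median of all genes, -0.31 with cells thinned and -0.62 without the sub-clusters held by 1 library. In insulin-leading cells it was -0.37 without those sub-clusters, in place of 0.07. Without hormone UMIs, a setting chosen after seeing the data for contrasts between types, the median was -0.19 in place of 0.26 for somatostatin-leading over insulin-leading control cells, and for hormone-low over insulin-leading cells -0.79 in place of -0.33 in the knockout-labelled library and -0.91 in place of -0.29 in the control library. The median share of endocrine cells with a UMI was 41.9% and 52.3% after thinning, in place of 70.3% and 80.7%. Leaving out single cells and splitting types by the sub-cluster were chosen after seeing the data. The cause was not tested, beyond what each setting removes. The thinned median of glucagon-leading cells and the free-RNA-subtracted one of Neurog3-positive cells could not be computed, as a gene was left with no UMIs. Depth limits small counts such as Pcsk1 in glucagon-leading cells and Scg2, Scg5 and Pcsk1 in Neurog3-positive cells.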
